A study of Mus musculus with 18 samples.

Results

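Mitochondria build a small set of respiratory chain proteins from their own DNA, and they do so on a ribosome of their own. All protein subunits of this mitochondrial ribosome (mitoribosome) are encoded in the nucleus, made in the cytosol and imported. The large subunit forms peptide bonds and the small subunit decodes the messenger RNA. Skeletal muscle is rich in mitochondria, and the nuclear regulators NRF1, the ETS factor GABP and the PGC-1 coactivators are known to drive genes of mitochondrial translation together with genes of the respiratory chain.

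The genes described here were the 71 genes with a symbol of the form Mrpl or Mrps plus a number, out of 22180 genes measured. They were selected by this name rule, from probesets that the platform annotation ties to 1 gene symbol, and the probesets of a gene were averaged. The rule was set with earlier results of these data known. Of the 71 genes, 43 were named Mrpl (large subunit) and 28 Mrps (small subunit). They were read from 80 probesets, and 9 genes had 2 probesets. Another 13 probesets carried a mitoribosomal symbol together with another symbol and were not used.

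Gastrocnemius, a calf muscle, was taken from 9 wild-type mice labelled female, of a mix C57Bl6/J-SV129 background, although the animal methods describe male C57BL/6J mice, bought at 8 weeks of age and acclimated for 2 weeks. The labels give no age, and whether that age holds for the mice measured was not resolved. In each mouse, 1 gastrocnemius was injected with 30 µg tunicamycin in 30 µL and the contralateral muscle with saline, and both were collected after 24 h. Tunicamycin inhibits the attachment of N-linked glycans to proteins entering the endoplasmic reticulum (ER) and so causes ER stress. The 9 saline and 9 tunicamycin muscles were each run on 1 MoGene-2_0-st array. Drug that entered the circulation could also reach the saline muscle, which was not measured, and the number of mice limits the precision. Whole muscle was used, so fewer cells of a type and less RNA per cell cannot be told apart.

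The values are log2 signals, and a change is the tunicamycin muscle minus the saline muscle of the same mouse, so that -1 would be a halving. Array medians ran from 4.99 to 5.07, and pairs of arrays correlated at 0.982 to 0.991. Hspa5, which encodes the ER chaperone BiP, rose by 1.36 ± 0.12 on the log2 scale (moderated SE of limma, 9 mice, adjusted p = 1.19e-04) and was higher in 9 of 9 mice, from 0.58 in mouse 1 and 0.73 in mouse 9 to 2.05. Both muscles of mouse 9 had low Xist signals, 4.79 and 4.90, against 9.22 to 9.52 in the other mice, while the 3 Y-linked genes examined lay between 2.51 and 3.53 on all arrays. The fast-fibre genes, which define this muscle, had a mean signal of 11.9 to 12.1 on every array. In mice 1 and 9 the residuals of both muscles did not correlate (r of -0.028 and -0.039), and counts without these mice are given below.

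The changes of the mitoribosomal protein genes were small and mostly below 0, and few of them passed the test. Of the 71 genes, 60 had a mean change below 0 and 11 above 0, with a median change of -0.090 and a range from -0.24 (Mrpl42) to 0.21 (Mrpl52). Over all 22180 genes the median change was 0.0064, and 47.3% of genes had a mean change below 0. In 37 of the 71 genes the change was smaller than 0.1 in either direction. Averaged over the 71 genes, the change was -0.077 ± 0.052 (SD over 9 mice) and was below 0 in 8 of 9 mice. It was lowest in mouse 6 at -0.14, was -0.12 in mice 4 and 5, and was closest to 0 in mice 1 and 8 at -0.018 and 0.018. Mouse 9, with a weak Hspa5 rise, had a mean of -0.092, and mouse 8, with no decrease, had an Hspa5 rise of 1.58. Mouse 1, with the smallest Hspa5 rise of 0.58, had a mean of -0.018. Mouse 3, with the largest of 2.05, had a mean of -0.10. Whether the mean change and the Hspa5 rise were linked was not tested.

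Tested gene by gene, 10 of the 71 genes fell (14.1%) and 1 rose (1.41%) at an adjusted p under 0.05 (limma with the mouse as a block, Benjamini-Hochberg over all genes). Of all genes, 6.15% fell and 4.72% rose under the same rule. At an unadjusted p under 0.05, 27 of the 71 were lower and 2 were higher. The change was below 0 in 9 of 9 mice for 8 genes (Mrpl18, Mrpl2, Mrpl57, Mrpl37, Mrpl47, Mrpl1, Mrpl15 and Mrpl51), which is 11.3% of them, against 3.69% of all genes. In none of the 71 did the saline and tunicamycin signals separate without overlap, compared with 0.564% of all genes. The split depended on the scaling. After a further quantile normalization 5 fell and 2 rose (4.88% and 5% of all genes). After centring each array on its median, 15 fell and 0 rose (8.05% and 3.62% of all genes), and all genes split into 1785 lower and 802 higher in place of 1363 and 1047.

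Genes that fell were more frequent at higher signals. The median saline signal was 7.30 for the 71 genes and 5.39 for all genes. Among the 3581 genes with a mean saline signal between the quartiles of the 71 genes (6.54 to 7.74), 12.9% fell, 7.07% rose, 61.2% had a change below 0, and the median change was -0.036. Of the 35 mitoribosomal genes in that range, 4 fell. The share of mitoribosomal genes that fell was close to that of genes of similar signal, whereas the share with any change below 0 (84.5%) was above it.

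**Figure D1:**
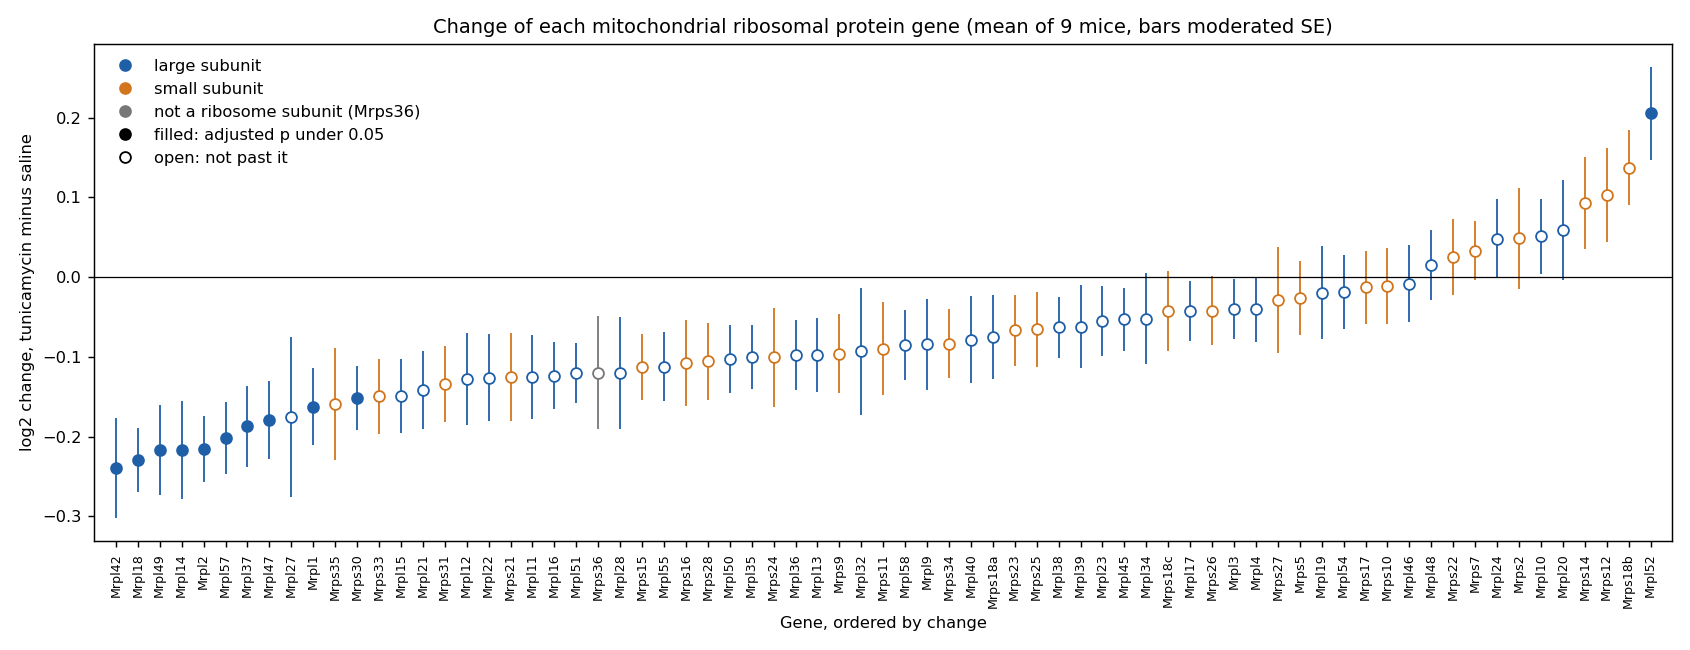
Mean log2 change of each of the 71 genes, tunicamycin minus saline over 9 mice, in order, with bars for the moderated SE. Large-subunit genes are blue and small-subunit genes orange by their place in the ribosome, filled points passed the adjusted p of 0.05, and 60 of the 71 points lie below 0.

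**Figure D2:**
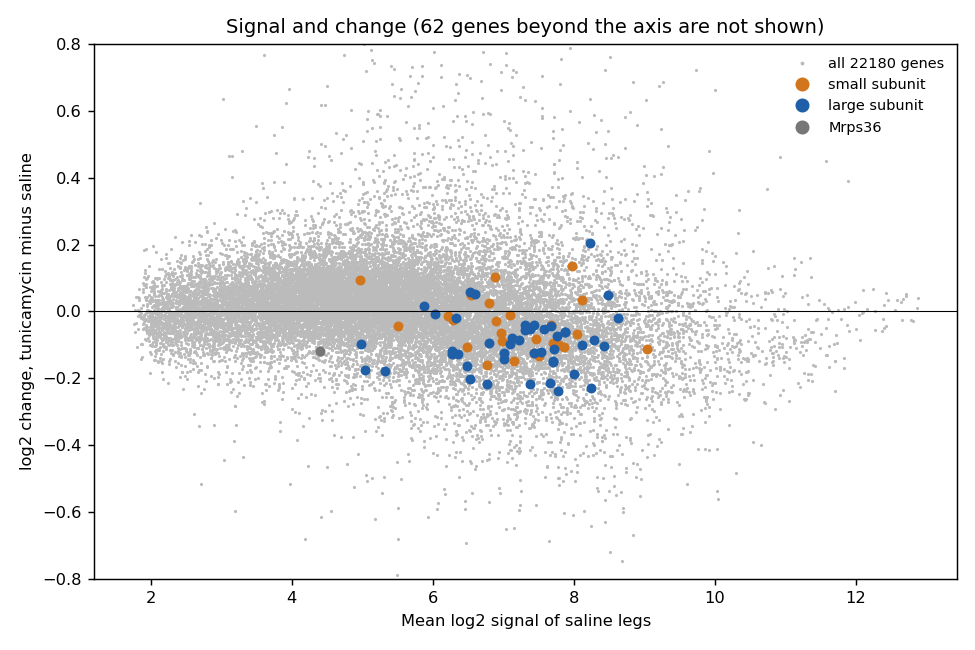
Mean log2 saline signal (horizontal axis) against mean log2 change (vertical axis) for all 22180 genes in grey and for the mitoribosomal genes in colour. The coloured points sit mostly below 0 at signals from 4.40 to 9.03, and 62 genes with changes beyond the axis are not drawn.

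The decrease with the smallest p was that of Mrpl18. It encodes uL18m, a component of the central protuberance, the crest of the large subunit that contacts the small subunit. Its saline signals ran from 8.15 over a median of 8.28 to 8.33, and its tunicamycin signals from 7.89 over 8.02 to 8.17. The groups overlapped only at their edge, where the highest tunicamycin muscle was just above the lowest saline muscle, and every mouse was lower in its tunicamycin muscle. The change was -0.23 ± 0.040 (SE, n = 9, limma adjusted p = 0.00463), a 1.17-fold fall.

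Mrpl2 encodes uL2m, which lies next to the peptidyl transferase centre where peptide bonds are made. Its saline signals were 7.56 to 7.79 with a median of 7.63 and its tunicamycin signals 7.31 to 7.56 with a median of 7.42. The highest tunicamycin muscle barely reached the lowest saline muscle, and 9 of 9 mice went down, the least in mouse 1. Mrpl2 fell by -0.22 ± 0.041 (limma adjusted p = 0.00758), or 1.16-fold. Mrpl14, which encodes uL14m at the interface between both subunits, ran from 6.53 over 6.83 to 7.04 in saline and from 6.36 over 6.54 to 6.79 in tunicamycin muscles. It overlapped more, was lower in 7 of 9 mice and higher in mice 2 and 8, and changed by -0.22 ± 0.062 (limma adjusted p = 0.0406).

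Mrpl1 and Mrpl47 also encode homologs of bacterial ribosomal proteins. Mrpl1 encodes uL1m, the protein of the mobile L1 stalk that handles the leaving tRNA. Its saline signals were 6.41 to 6.56 (median 6.49) and its tunicamycin signals 6.12 to 6.53 (median 6.34). Tunicamycin muscles spread more widely than saline muscles, and the change of -0.16 ± 0.048 (limma adjusted p = 0.0473) ran from -0.36 to nearly 0 across mice. Mrpl47 encodes uL29m, near the exit of the tunnel through which the new protein leaves. It had signals of 5.03 to 5.55 (median 5.29) in saline and 5.00 to 5.43 (median 5.12) in tunicamycin muscles and changed by -0.18 ± 0.049 (limma adjusted p = 0.0337). The groups overlapped almost fully although each mouse was lower after tunicamycin, and of its 2 probesets 1 changed by -0.19 (adjusted p over probesets 0.0190) and the other by -0.16 (adjusted p over probesets 0.327).

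The other 5 genes that fell encode subunits with no bacterial counterpart. Mrpl42 changed the most, by -0.24 ± 0.063 (limma adjusted p = 0.0296), from saline signals of 7.65 to 8.03 (median 7.75) to tunicamycin signals of 7.11 to 7.80 (median 7.60). Its fall was uneven, as it reached -0.57 in mouse 3 and was 0.056 in mouse 8. Mrpl49 had saline signals of 7.22 to 7.53 (median 7.42) and tunicamycin signals of 6.87 to 7.39 (median 7.20), and it changed by -0.22 ± 0.057 (limma adjusted p = 0.0287). The groups of Mrpl49 overlapped, and 8 of 9 mice were lower, with mouse 1 higher at 0.14.

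Mrpl57, which encodes mL63, had saline signals of 6.26 to 6.67 (median 6.59) and tunicamycin signals of 5.99 to 6.52 (median 6.35). It fell by -0.20 ± 0.045 (limma adjusted p = 0.0151) and was lower in 9 of 9 mice, with overlapping groups. Mrpl37 ran from 7.86 over 8.01 to 8.24 in saline and from 7.61 over 7.85 to 8.01 in tunicamycin muscles. It too was lower in every mouse, by -0.19 ± 0.051 (limma adjusted p = 0.0336), although by under 0.01 in mouse 5.

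Mrps30 carries a small-subunit name, but its product is known as mL65 and lies in the large subunit of the mammalian mitoribosome. Its saline signals were close together, from 7.63 over 7.71 to 7.79, and its tunicamycin signals ran from 7.44 over 7.53 to 7.79. The highest tunicamycin signal belonged to mouse 8, the only mouse in which the gene was not lower. The change was -0.15 ± 0.040 (limma adjusted p = 0.0309). Counted by place in the ribosome, all 10 genes that fell therefore belonged to the large subunit.

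Mrpl52 was the 1 gene that rose. It encodes mL52, a protein particular to the mitoribosome and part of the central protuberance, as is the product of Mrpl18. Saline signals were 8.00 to 8.48 (median 8.20) and tunicamycin signals 8.21 to 8.58 (median 8.45). The change was 0.21 ± 0.058 (limma adjusted p = 0.0406), a 1.15-fold rise, with 8 of 9 mice higher and mouse 9 lower by 0.079. Macrophage and neutrophil list means were also lower in the tunicamycin muscle of mouse 9 (-0.36 and -0.33). They were lower in that of mouse 1 too (-0.055 and -0.21), where Mrpl52 was higher by 0.038. With both list means as covariates the change of Mrpl52 was 0.046 (limma adjusted p = 0.801). In that fit only 0.0947% of all genes rose and 0.0271% fell, so the lost call was not particular to Mrpl52. Whether these markers have a part in the rise was not tested.

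Mrps18b was the next highest. Saline signals were 7.84 to 8.10 (median 7.97) and tunicamycin signals 7.92 to 8.34 (median 8.10), with 8 of 9 mice higher. Its change of 0.14 ± 0.047 did not pass the test (limma adjusted p = 0.0812), and both of its probesets were above 0. It was the second gene that rose after a further quantile normalization, by 0.17 (adjusted p = 0.0281), and it passed in 5 other alternatives (adjusted p = 0.0353 to 0.0437). Mrps18b belongs to a set of 3 paralogs that share descent from the bacterial protein S18. The product of Mrps18c occupies the S18 site of the small subunit, that of Mrps18b is another small-subunit protein (mS40), and that of Mrps18a lies in the large subunit (mL66). Mrps18c changed by -0.043 ± 0.050 (adjusted p = 0.650) and its 2 probesets had opposite signs, and Mrps18a changed by -0.075 ± 0.053 (adjusted p = 0.413).

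**Figure D3:**
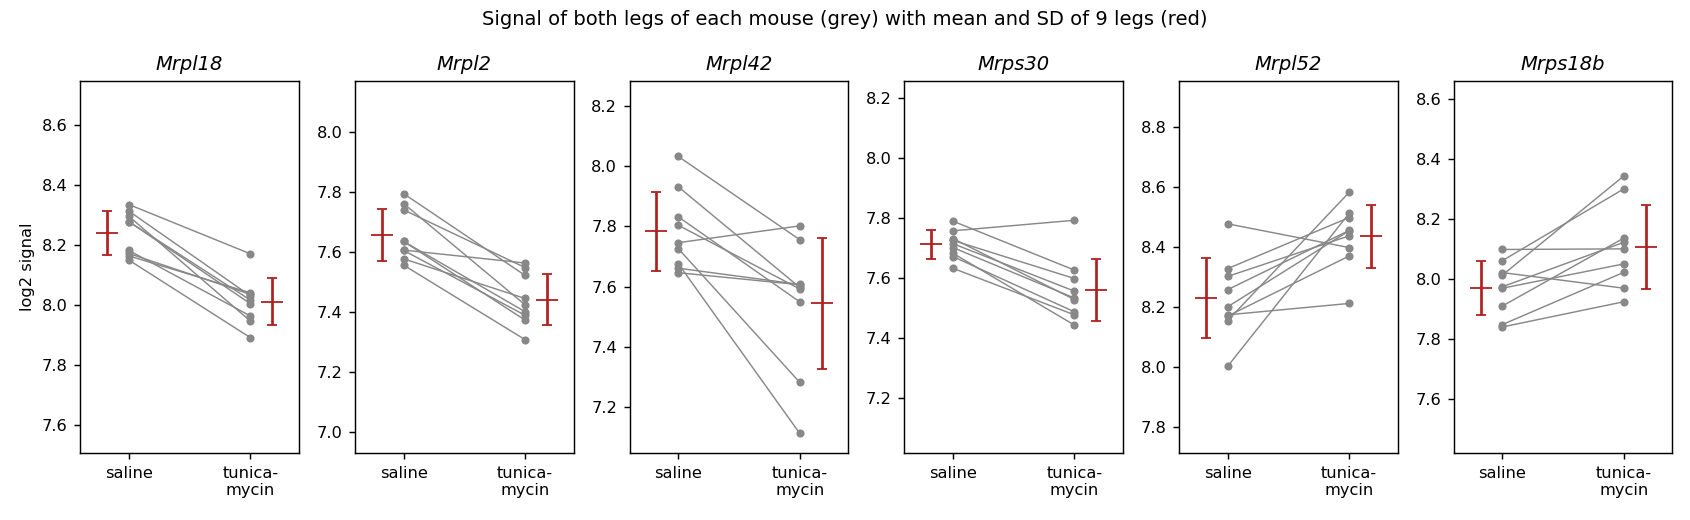
Log2 signal of the saline and tunicamycin muscle of each of 9 mice (grey lines) for 6 genes, with the mean and SD of each group in red. All lines of Mrpl18 and Mrpl2 fall, 1 line of Mrpl42 and 1 of Mrps30 rise, and all but 1 line of Mrpl52 and of Mrps18b rise; each panel is centred on its own gene.

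The DNA in front of these genes was examined in the RefSeq promoter table (GRCm38.p6, 250 bases before to 50 after each start), which held windows for 62 of the 71 genes. The bases before the start are shown for the 2 genes that fell with the smallest p and the 2 with the highest change, 5′ to 3′ on the strand of the gene. They are Mrpl18 (chr17:12916092-12916291, minus strand), Mrpl2 (chr17:46646081-46646220, plus strand, ended at the start of its neighbour Klc4), Mrpl52 (chr14:54426709-54426908, plus strand) and Mrps18b (chr17:35916441-35916640, minus strand). Capitals mark a match on either strand to the GC box GGGCGG or the ETS motif CCGGAAG, and no match to the NRF1 half-site TGCGCA or the YY1 motif AAGATGGCG lay in these stretches.
Mrpl18: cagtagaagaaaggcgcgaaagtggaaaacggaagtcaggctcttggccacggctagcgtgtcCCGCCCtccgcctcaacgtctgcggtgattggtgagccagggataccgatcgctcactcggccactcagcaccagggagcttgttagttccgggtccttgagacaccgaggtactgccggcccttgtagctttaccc
Mrpl2: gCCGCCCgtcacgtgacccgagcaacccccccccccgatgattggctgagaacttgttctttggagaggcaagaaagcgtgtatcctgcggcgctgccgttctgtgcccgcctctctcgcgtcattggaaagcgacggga
Mrpl52: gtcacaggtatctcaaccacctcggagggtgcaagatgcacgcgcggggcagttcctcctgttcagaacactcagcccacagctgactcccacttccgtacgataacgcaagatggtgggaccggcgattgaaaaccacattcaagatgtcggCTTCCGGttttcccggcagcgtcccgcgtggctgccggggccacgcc
Mrps18b: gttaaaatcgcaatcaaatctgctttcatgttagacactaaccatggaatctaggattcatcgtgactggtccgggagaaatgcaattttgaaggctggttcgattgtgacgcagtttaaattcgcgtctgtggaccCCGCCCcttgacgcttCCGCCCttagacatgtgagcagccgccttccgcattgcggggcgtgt
The stretches of Mrpl18, Mrpl2 and Mrps18b held GC boxes and that of Mrpl52 held an ETS match, so a GC box was present both in genes that fell and in a gene with a change above 0.

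Counts are of genes with a window. Among the 62 genes, the ETS motif CCGGAAG, the core that GABP and related factors bind, was present in 23 (37.1%). This compares with 9.93% of all 27025 genes and 12.9% of the 17491 protein-coding genes. TGCGCA was present in 19 (30.6%, against 8.79% and 11.0%), and AAGATGGCG in 8 (12.9%, against 1.64% and 2.14%). GGGCGG was in 32 (51.6%, against 38.2% and 49.2%), CCAAT in 24 (38.7%, against 41.1% and 42.3%) and TATAAA in 5 (8.06%, against 15.7% and 14.8%). The motifs were searched on both strands, and a gene with several starts may have had more bases searched. The windows were rich in CpG, with a median of 20.6 CpG against 7 for all genes and 13 for protein-coding genes.

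Genes with a match were counted among the 10 that fell and the 52 others with a window. The differences between these small counts were not tested. An ETS match was in 2 of the 10 genes that fell and in 21 of the 52 others, TGCGCA in 1 of 10 and 18 of 52, and GGGCGG in 8 of 10 and 24 of 52. The UPR element TGACGTGG, the C/EBP-ATF site TGATGCAAT and the ERR site TCAAGGTCA each had 0 matches in the 62 genes, compared with 0.714%, 0.222% and 0.466% of all genes. The cAMP response element TGACGTCA was in 2 genes (3.23%, against 2.03% of all and 2.54% of protein-coding genes), of which 1 fell. CCACG, the short part of the ER stress response element, was in 31 genes (50%, against 35.5% and 40.4%), of which 6 fell. A motif match is a run of letters and not a measured binding site.

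Many of the genes started back to back with a neighbour. For 24 of 62 (38.7%) a gene on the opposite strand started within 1000 bases upstream (an overlap of up to 200 bases was allowed), compared with 13.6% of all genes and 14.2% of protein-coding genes. Of the 10 genes that fell, 7 had such a neighbour: Mrpl2 with Klc4, Mrpl14 with Tmem63b, Mrpl18 with Tcp1, Mrpl37 with Cyb5rl, Mrpl47 with Ndufb5, Mrpl49 with Fau and Mrpl57 with Ska3. Of the 24 neighbours, 1 fell and 0 rose (limma, against 6.15% and 4.72% of all genes), with a median change of -0.032. That 1 neighbour was Ndufb5, which encodes a complex I subunit and changed by -0.16 ± 0.040 (adjusted p = 0.0227) beside -0.18 for Mrpl47. Fau, which encodes a ribosomal protein of the cytosolic small subunit, changed by 0.079 beside -0.22 for Mrpl49. Mrpl46 and Mrps11 start back to back with each other and changed by -0.0083 and -0.090. Member and neighbour had the same sign in 17 of 24 pairs. Since 60 of the 71 genes and the median neighbour were below 0, pairs of the same sign would be frequent without a link. The changes of member and neighbour correlated at r = 0.11 across the 24 pairs, which share arrays and count Mrpl46 and Mrps11 from both sides.

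**Figure D4:**
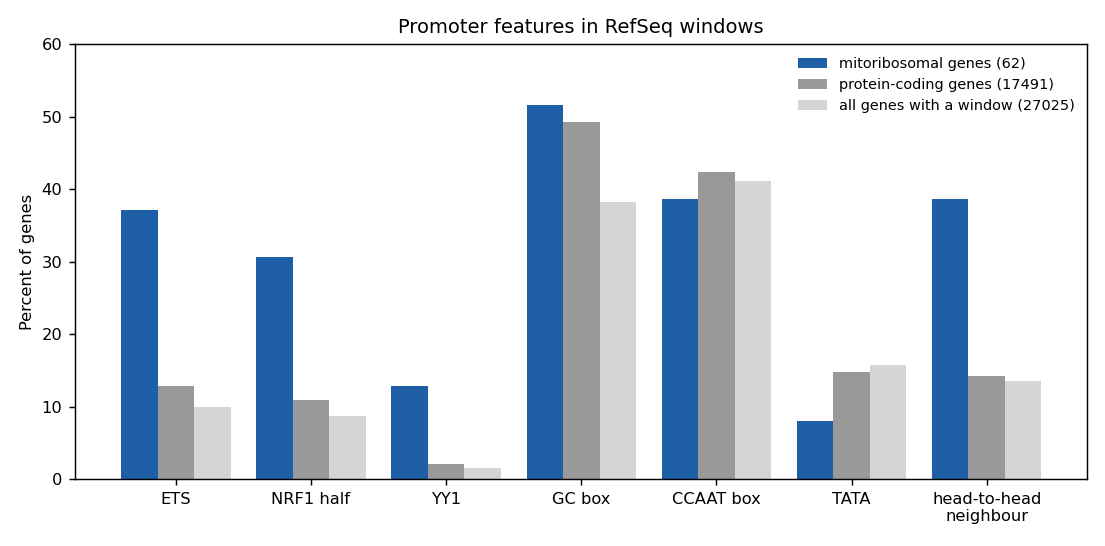
Percent of genes whose RefSeq promoter window holds each motif, and percent with a head-to-head neighbour, for 62 mitoribosomal genes (blue), 17491 protein-coding genes (dark grey) and all 27025 genes with a window (light grey). ETS, NRF1 half-site and YY1 matches and head-to-head neighbours were more frequent among the mitoribosomal genes, and the TATA match was less frequent.

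The large subunit had the lower mean change in most mice. By symbol, 9 of the 43 Mrpl genes fell and 1 rose, with a median change of -0.098, and 1 of the 28 Mrps genes (Mrps30) fell, with a median of -0.071. By place in the ribosome, with Mrps30 and Mrps18a counted as large and Mrps36 left out, 10 of 45 large-subunit genes fell (22.2%) and 1 rose. Of the 25 small-subunit genes, 0 passed the test in either direction (limma), while 6 were lower and 1 was higher at an unadjusted p under 0.05. Over all genes 6.15% fell and 4.72% rose, and 12.9% of genes of similar signal fell. At such shares few calls would be expected among 25 genes, and the counts of the subunits were not compared by a test. In this division the mean change was -0.094 ± 0.045 (SD over 9 mice) for the large subunit, below 0 in 9 of 9 mice, and -0.045 ± 0.066 for the small subunit, below 0 in 6 of 9. The large subunit minus the small was -0.049 ± 0.032, below 0 in 8 of 9 mice, with mouse 6 at 0.014. By symbol the same difference was -0.040 ± 0.037 and below 0 in 7 of 9 mice. By place the difference was larger in size than its SD over mice, and by symbol it was close to its SD. This SD is the spread of single mice and not the error of the mean difference. No test was run on means over genes.

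Within the small subunit, most genes lay slightly below 0. Changes ran from -0.16 (Mrps35) to 0.14 (Mrps18b), and 19 of the 25 were below 0. Mrps12 encodes uS12m at the decoding centre, where codon and anticodon are paired. It was 6.69 to 7.08 (median 6.91) in saline and 6.78 to 7.12 (median 6.97) in tunicamycin muscles, a change of 0.10 ± 0.059 (limma adjusted p = 0.303) with 7 of 9 mice higher. Mrps14 changed by 0.092 ± 0.058 (adjusted p = 0.345), also with 7 of 9 mice higher and overlapping groups. Mrps15, the gene of uS15m, changed by -0.11 ± 0.042 (adjusted p = 0.105) and was lower in 7 of 9 mice. Mrps36 keeps a ribosomal name, but its product is now placed in the 2-oxoglutarate dehydrogenase complex. It changed by -0.12 ± 0.071 (adjusted p = 0.314).

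Within the large subunit, the genes of its functional sites gave small values. The 4 measured genes of the L7/L12 stalk, which recruits translation factors, had 0 calls (limma), 2 at an unadjusted p under 0.05, and a median of -0.072. Mrpl12, the gene of the stalk protein bL12m, changed by -0.13 ± 0.057 (adjusted p = 0.179), and Mrpl10, whose product anchors bL12m, by 0.051 ± 0.047 (adjusted p = 0.544) with probesets of opposite sign. Of 7 genes around the tunnel exit, 1 fell (Mrpl47), which is 14.3%, against 6.15% of all genes. Mrpl45, whose product ties the ribosome to the inner membrane, changed by -0.053 ± 0.040 (adjusted p = 0.447) and Mrpl23, at the tunnel exit, by -0.055 ± 0.044 (adjusted p = 0.483).

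The central protuberance held both directions. Of its 9 measured genes, Mrpl18 fell (11.1%), Mrpl52 rose (11.1%) and the median was -0.078. Among 45 genes with bacterial homologs 5 fell (11.1%) and 0 rose, with a median of -0.096. Among 25 particular to mitochondria 5 fell (20%) and 1 rose (4%), with a median of -0.078. Of all genes 6.15% fell and 4.72% rose, and 12.9% of genes of similar signal fell. Mrpl20 (0.059 ± 0.062), Mrpl24 (0.048 ± 0.050), Mrpl36 (-0.098 ± 0.044) and Mrpl54 (-0.019 ± 0.047) did not pass the test.

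Other genes of mitochondrial translation were read from lists based on general knowledge. The translation factor list had 5 of 14 genes lower (35.7%, against 6.15% of all genes) and 0 higher, with a median of -0.10. Mtres1, a factor that rescues stalled mitoribosomes, changed by -0.25 ± 0.047 (adjusted p = 0.00626) and was lower in 9 of 9 mice. The elongation factor genes Guf1 and Gfm1 changed by -0.18 ± 0.045 (adjusted p = 0.0256) and -0.16 ± 0.042 (adjusted p = 0.0276). The membrane insertase gene Oxa1l changed by -0.19 ± 0.050 (adjusted p = 0.0270) and the release factor gene Mtrf1 by -0.16 ± 0.045 (adjusted p = 0.0442). Of 26 genes of mitoribosome assembly and rRNA modification, 2 fell (Noa1 by -0.14 ± 0.038 and Ngrn by -0.14 ± 0.042) and 0 rose, with a median of -0.081. The share that fell, 7.69%, was near that of all genes.

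The remaining lists of mitochondrial gene expression gave few calls. Of 17 genes of mitochondrial transcription and RNA handling, Lrpprc (-0.19 ± 0.054) and Tfam, whose product packages mitochondrial DNA (-0.16 ± 0.046, adjusted p = 0.0402), fell. Of 16 mitochondrial aminoacyl-tRNA synthetase genes, Iars2 fell by -0.14 ± 0.038. The shares that fell were 11.8% of the transcription and RNA list and 6.25% of the synthetase list, against 6.15% of all genes. Of 3 mitoribosomal proteins with other symbols, 0 passed the test (limma), while 2 were lower at an unadjusted p under 0.05. They were Ptcd3 at -0.28 ± 0.088 (adjusted p = 0.0567), Dap3 at -0.099 ± 0.045 (adjusted p = 0.190) and Gadd45gip1 at -0.048 ± 0.047 (adjusted p = 0.577).

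The closest comparison groups had medians on opposite sides of 0. Of 68 nuclear genes of the respiratory chain and ATP synthase, 15 fell (22.1%) and 0 rose, with a median of -0.14 and a mean of -0.14 ± 0.11 over mice, below 0 in 8 of 9. Ndufb3 (-0.28 ± 0.057), Ndufs4 (-0.23 ± 0.055), Ndufa5 (-0.21 ± 0.043), Ndufa6 (-0.19 ± 0.050), Ndufb5 and Atp5g3 (-0.21 ± 0.045) were those with the smallest p. Of all genes, 6.15% fell. The respiratory chain list was brighter, with a median saline signal of 8.98 against 7.30 for the mitoribosomal and 6.90 for the cytosolic ribosomal genes. Genes that fell were more frequent at higher signals, and the share at the signal of this list was not counted. Of 79 cytosolic ribosomal protein genes listed, 59 were measured. Of these, 4 rose (Rpsa, Rpl10a, Rpl29 and Rpl3, by 0.15 to 0.22) and 0 fell (limma, also 0 at an unadjusted p under 0.05), with a median of 0.055. Some of the 59 were dim, such as Rps13 and Rps20 with mean saline signals of 2.85 and 3.66, against 2.51 to 3.53 for the Y-linked genes. The share that rose, 6.78%, was near that of all genes (4.72%), and after centring the arrays Rpl10a (adjusted p = 0.0558) and Rpl3 (adjusted p = 0.0612) no longer passed. Their mean was 0.061 ± 0.062 and above 0 in 8 of 9 mice, the reverse of the mitoribosomal mean. In mouse 9 both ribosomal groups were below 0, and in mouse 8 the large mitoribosomal subunit alone of the 4 groups plotted was below 0.

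**Figure D5:**
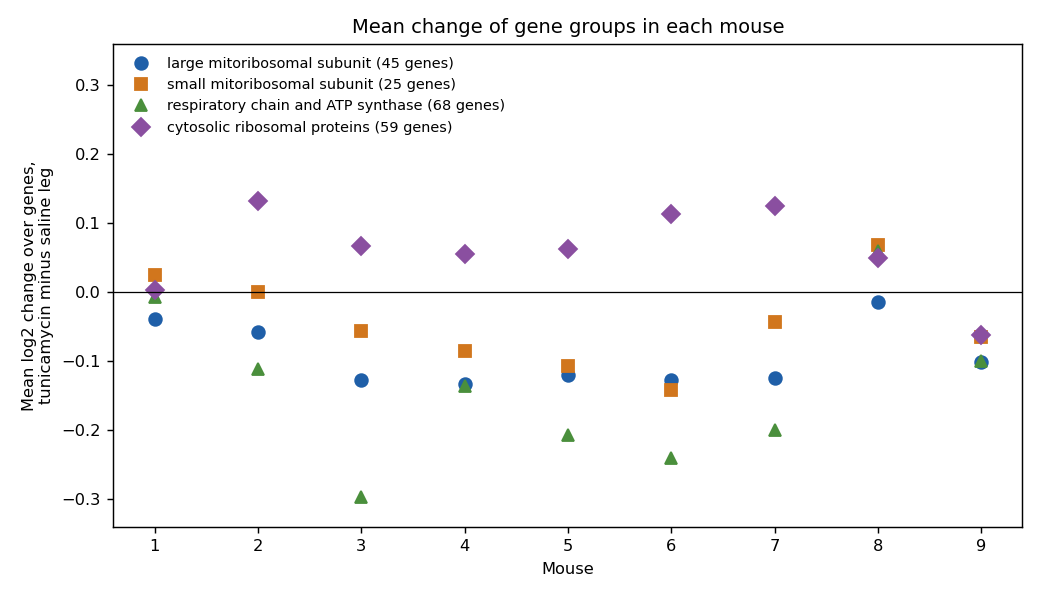
Mean log2 change of 4 gene groups in each of 9 mice, tunicamycin minus saline muscle. Large-subunit means (circles) are below 0 in all 9 mice, small-subunit means (squares) in 6, respiratory chain means (triangles) in 8, and cytosolic ribosomal means (diamonds) are above 0 in 8.

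Among 14 regulators of mitochondrial biogenesis, 1 fell and 2 rose (7.14% and 14.3%, against 6.15% and 4.72% of all genes). Ppargc1a, the gene of the coactivator PGC-1α, changed by -0.51 ± 0.082 (adjusted p = 0.00306) and was lower in 9 of 9 mice. Its relative Pprc1 rose by 0.16 ± 0.039 (adjusted p = 0.0196), and Myc, a driver of ribosome production, by 0.63 ± 0.088 (adjusted p = 0.00153), each in 9 of 9 mice. Nrf1, Gabpa, Yy1 and Esrra, genes of some of the factors whose motifs were counted above, did not pass the test. Their changes were -0.092 ± 0.045 for Nrf1, -0.075 ± 0.040 for Gabpa, 0.033 ± 0.038 for Yy1 and -0.079 ± 0.061 for Esrra. Genes of factors that bind the other counted motifs, among them those of the ER stress response, are not described here.

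Signals of several cell type markers changed between the muscles. Of all genes, 4.72% rose and 6.15% fell. Neutrophil markers rose in 6 of 8 genes and macrophage markers in 4 of 10, with Cd163 lower, and their list means changed by -0.33 to 1.13 and -0.36 to 0.69 across mice. The macrophage list mean was 6.18 to 6.85 in saline and 6.44 to 7.32 in tunicamycin muscles, and the neutrophil list mean 5.13 to 5.85 and 5.48 to 6.50. Fibroblast markers rose in 2 of 6 genes (Col3a1 by 0.72 and Col1a2 by 0.27), T cell markers in 1 of 4 (Cd4), and smooth muscle markers fell in 2 of 4 (Myh11 by -0.27 and Tagln by -0.26), with a smooth muscle list mean below 0 in 7 of 9 mice. None of these markers was at 0, since array signals have no true zero. Slow-fibre and adipocyte lists had no calls among 6 genes each (limma, also 0 at an unadjusted p under 0.05), but their means changed by -2.05 to 0.57 and -1.30 to 1.81 across mice. With the macrophage and neutrophil means as covariates, 0 of the 71 mitoribosomal genes passed in either direction (limma, 8 lower and 0 higher at an unadjusted p under 0.05), the mean change was -0.058, and 0.0271% of all genes fell and 0.0947% rose. With the slow-fibre and adipocyte means as covariates, 0 passed as well (17 lower and 0 higher at an unadjusted p under 0.05), the mean change was -0.076, and 0.775% of all genes fell and 0.974% rose. The part of these markers in the mitoribosomal changes was not tested further.

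The number of calls also changed when single mice were left out. Without mouse 2, 3, 4, 5, 6 or 7 in turn, 5, 4, 3, 4, 4 and 3 mitoribosomal genes fell, and without mouse 1, 8 or 9 it was 9, 9 and 10. The share of all genes that fell moved in the same way. It was 3.34% to 3.97% without any of mice 2 to 7 and 5.91% to 6.65% without mouse 1, 8 or 9. The 1 rise, that of Mrpl52, was lost without any of mice 2 to 8, and without mouse 9 there were 2. Without mice 1 and 9 together, 8 fell and 2 rose (7.42% and 7.05% of all genes). The mean change over the 71 genes stayed between -0.069 and -0.089 with each mouse left out.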

How the data were processed

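Total RNA of 18 gastrocnemius muscles, 9 saline and 9 tunicamycin, was hybridised to MoGene-2_0-st arrays. The deposited values are log2 signals per probeset that the authors made with RMA in Partek (background correction, quantile normalization and median polish). The genome build behind the values was not given in the sources used here, so coordinates refer only to the RefSeq promoter table. RMA equalises the distributions of arrays and compresses differences of dim probesets.

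Groups and mouse numbers came from the labels. Of 41345 probesets, 23521 had 1 gene symbol in the platform annotation, 1820 several and 16004 none listed, and those of 1 symbol were averaged to 22180 genes. All 71 symbols were found in the RefSeq gene table. A two-sided moderated test of limma 3.58.1 (R 4.3.3, lmFit and eBayes) was run on each gene with a term for each mouse, since the labels state that both injections were made in 1 animal. Same-mouse residuals correlated with a median r of 0.12 (-0.039 to 0.35). Genes were called at a Benjamini-Hochberg adjusted p under 0.05 over all genes, and errors are moderated SE unless named SD. The fit was tested on simulated data.

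The genes and lists were chosen with earlier results of these data known. Genes named were those past the threshold, the 6 with the largest rise and the largest fall, paralogs and genes of the stalk and tunnel exit, the 3 highest and lowest in signal, and from the other lists up to 6 genes past the threshold and a few regulators. Signals of different probesets were not used to rank transcripts. Alternatives were the fit without the block, other scalings, probeset choice, a signal filter, array weights, another prior, cell marker covariates and leaving out mice. No detection call was used.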

Additional observations from a re-analysis of the deposited data

Results flagged for a closer look

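Of 171 sets of 9 values examined (saline signal, tunicamycin signal and change of each named gene), 7 had a lowest or highest value set far from the other 8 by Dixon's criterion for 9 values (0.493), where chance gives about 1 in 20. Among the mitoribosomal genes, the tunicamycin signal of Mrpl57 was 5.993 in mouse 3, against 6.283 to 6.516 in the other mice. The change of Mrps30 was 0.03461 in mouse 8, against -0.2391 to -0.1274 in the others. The saline signal of Mrpl12 was 6.559 in mouse 7, against 6.153 to 6.317.

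Among the other genes, the tunicamycin signal of Gfm1 was 8.343 in mouse 3, against 8.515 to 8.683. The change of Ndufb3 was 0.1474 in mouse 8, against -0.4625 to -0.2283, and the saline signal of Atp5g3 was 8.76 in mouse 8, against 8.971 to 9.167. The saline signal of Gabpa was 7.851 in mouse 3, against 7.997 to 8.145. Of these 7 values, 3 came from mouse 3 and 3 from mouse 8.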

How the results depend on the processing

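The mean change of all 71 genes kept its sign in every alternative run (-0.058 to -0.095), as did that of the large subunit, that of the small subunit and their difference, and 53 to 61 of the 71 genes were below 0 in the fits over all genes that kept the 71. Counts of calls moved. Main values were 10 lower, 1 higher, 9 lower in the large subunit and 1 in the small, by symbol. Without the replicate block, 5, 1, 3 and 2 passed, and 4 of the 10 remained (4.17% of all genes fell and 4.21% rose). After quantile normalization again they were 5, 2, 5 and 0, and after centring 15, 0, 12 and 3. Among genes above the median signal, 17 of 66 fell (16.7% of all such genes), 2 rose, and 4 of those that fell were small-subunit genes. Array weights gave 2 higher and 3 lower small-subunit genes, and the trended robust prior 2 and 3. Of all genes, 7.72% fell and 6.38% rose with array weights, and 7.57% and 5.14% with that prior. Each pair of covariates gave 0 in all 4 counts (limma). Without mice 1 and 9, 2 rose. By probeset, 4 of 80 fell, 4 large and 0 small, and 0 rose (limma, 3 at an unadjusted p under 0.05). Of all probesets, 2.55% fell and 1.93% rose. Leaving out each mouse gave 3 to 10 lower, 0 to 2 higher, 3 to 8 lower in the large subunit and 0 to 2 in the small. Genes with changes near 0 turned sign: Mrpl54 to 0.012 after quantile normalization, 0.0077 without mice 1 and 9 and -0.0441 to 0.0037 with each mouse left out, Mrps18c to 0.048 and Mrpl10 to -0.019 with the brightest probeset, and Esrra to 0.060 with macrophage and neutrophil covariates. The cause was not tested. The 9 pairs limit the precision, and dim probesets such as those of Mrps36, Mrps14 and Mrpl36 lie where array signals compress change.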
